A study of Mus musculus with 23 samples.

Results

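Cox6a2, Klk1, Mctp2, Ly6d, Atp2a1, Fbxl13, Pacsin1, Grm8, Ptprs and Lag3 are 10 genes picked from 47729 in the table for high RNA in untreated DC1b cells of mouse spleen, or for a link to plasmacytoid dendritic cells. Transcription factors and sensors were left out of the choice. The genes were chosen on their levels in untreated DC1b cells and on lower levels after TLI, so these levels are given as a description with no test. In the 2 untreated DC1b libraries, 9 of the 10 stood above all 21 other libraries. Lag3 did not: it was near the detection floor in untreated DC1b cells and its mean was higher after TLI. The description of the set as DC1b genes lost after TLI therefore does not hold for Lag3, and Ly6d and Ptprs were lower after TLI but kept 14.9% and 14.3% of their untreated DC1b mean.

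Dendritic cells were sorted from the spleens of wild-type BALB/c mice that carried no labelled genetic change, and the age of the animals was not given in the labels. The sort used CD8 and CD172, which separated DC1a cells (high CD8, no CD172), DC1b cells (intermediate CD8, CD172 positive), DC2 cells (low CD8, high CD172) and DC3 cells (no CD8, low CD172). Untreated mice gave pools 1 and 2, and TLI mice gave pools 1 to 4, which made 8 untreated and 15 TLI libraries, since no DC2 library of TLI pool 2 was analysed here. TLI is not spelled out in the labels and commonly stands for total lymphoid irradiation, and neither the dose nor the interval before the sort was part of the labels. Untreated pools and TLI pools 1 and 2 belong to batch 1 of the labels and TLI pools 3 and 4 to batch 2. TLI pools and untreated pools of the same number are different mice.

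Plasmacytoid dendritic cells make type I interferon after sensing viral nucleic acids. They depend on the transcription factor Tcf4 and, in mice, carry the surface lectin Siglech and the antigen Bst2. They share features with lymphoid cells, and several of the genes described here, such as Ly6d, Pacsin1, Ptprs and Lag3, are known from them. Some of these genes are named for a different tissue or role, which does not set them apart from plasmacytoid genes. Cox6a2 and Atp2a1 encode muscle forms of widely used proteins and Grm8 a glutamate receptor.

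Whole-library values that bear on these genes were as follows. Totals lay between 19256447 and 36997890 estimated counts, so 3 counts, taken as the floor, corresponded to at most 0.156 CPM, and amplified reads make this a limit for counting error only. Levels are given in CPM, counts scaled to the library total and to TMM factors. The list of 6 plasmacytoid markers summed to 3078 and 3488 CPM in the untreated DC1b libraries and to between 246 and 602 CPM in the TLI DC1b libraries. The sum was also 607 and 664 CPM in untreated DC2 libraries and up to 1187 CPM in TLI DC1a libraries. Siglech was at or under the floor in every TLI DC1a library, so the sums there came from the other markers of the list. Cd8a, which should mark DC1b cells at an intermediate level, was between 85.5 and 352 CPM in 5 DC1b libraries and 0.36 CPM in TLI DC1b pool 4, against the sort. Sirpa, the gene of CD172a, was 162 and 145 CPM in TLI DC1b pools 1 and 2, 5.51 and 7.26 CPM in pools 3 and 4, and 11.6 and 81.0 CPM in the untreated pools. In bulk libraries, fewer cells of a type and less RNA per cell cannot be told apart.

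**Figure D1:**
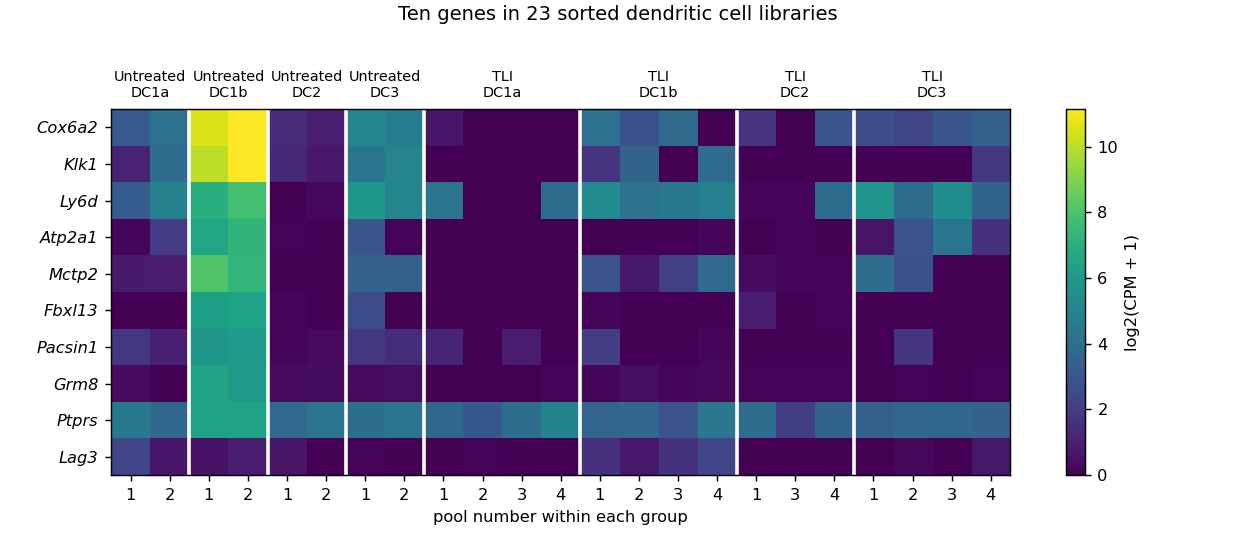
Level of each gene, as log2(CPM + 1), in the 23 libraries, with columns ordered by treatment, subset and pool and rows by level per kilobase in untreated DC1b cells. The pair of untreated DC1b columns is bright for 9 genes, Ptprs and Ly6d keep visible levels in other columns, and Lag3 is dark in nearly all.

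The starts of 3 of the genes are shown as examples. These genes were high in untreated DC1b cells and lower in the other subsets, as were Fbxl13, Grm8, Pacsin1 and Ptprs, which are not shown. Each line gives the bases before the start of the gene, 5′ to 3′ on the gene's strand, from RefSeq promoter windows on GRCm38.p6. The capitals mark E-boxes (CANNTG on either strand), the letters bound by E proteins such as Tcf4. Bases that GENCODE places inside an exon were left off at the gene's end.
Klk1, chr7:44225110-44225359, plus strand: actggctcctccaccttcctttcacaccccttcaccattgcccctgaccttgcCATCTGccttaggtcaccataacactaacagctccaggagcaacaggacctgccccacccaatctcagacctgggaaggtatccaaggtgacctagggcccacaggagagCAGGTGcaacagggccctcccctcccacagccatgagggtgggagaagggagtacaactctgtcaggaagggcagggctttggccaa
Mctp2, chr7:72306609-72306845, minus strand: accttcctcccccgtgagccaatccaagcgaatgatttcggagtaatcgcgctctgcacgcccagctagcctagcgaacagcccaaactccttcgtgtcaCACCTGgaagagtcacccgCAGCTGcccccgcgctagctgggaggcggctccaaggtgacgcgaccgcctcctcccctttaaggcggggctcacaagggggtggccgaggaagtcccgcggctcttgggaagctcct
Atp2a1, chr7:126463109-126463323, minus strand: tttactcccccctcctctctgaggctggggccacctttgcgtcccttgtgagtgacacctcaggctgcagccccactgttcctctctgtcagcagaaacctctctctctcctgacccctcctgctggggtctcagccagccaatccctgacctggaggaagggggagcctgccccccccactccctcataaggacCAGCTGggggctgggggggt

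The Klk1 and Mctp2 stretches each held 2 E-boxes and the Atp2a1 stretch 1. Of the 10 genes, 7 had a window in the RefSeq table, with 10 windows in all. Over the full 250 bases before the start, 6 of the 10 windows held CANNTG, against 66.2% of all 32851 windows. These belonged to 6 of the 7 genes, and Pacsin1, not shown above, was the gene without it. The form CAGCTG was found in 2 of the 10 windows (Atp2a1 and Mctp2) and in 13% of all windows. The form CAGGTG was found in 3 of the 10 windows (Grm8, Klk1 and Mctp2) and in 17.2% of all windows. Both forms are contained in CANNTG and were searched on both strands. TGTGGT, letters bound by Runx factors, was found in 2 of the 10 windows (Fbxl13 and Pacsin1) and in 14% of all windows. GAGGAA, letters bound by factors of the ETS family, was found in 4 of the 10 windows and in 23.3% of all windows. Its windows were those of Atp2a1, Grm8, Mctp2 and Ptprs. These are matches of letters and not measured binding.

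Per kilobase of exon, Cox6a2 had the highest mean of the set in untreated DC1b cells, though it did not differ from Klk1 beyond their spread. It encodes the heart and skeletal muscle form of subunit VIa of cytochrome c oxidase, the last complex of the respiratory chain, and lies on chromosome 7 from 128205435 to 128206387 with 3 exons. Untreated DC1b pools 1 and 2 held 1443 and 2244 CPM. Untreated DC3 cells, the next group, held 34.8 and 25.7 CPM. Untreated DC1a cells held 7.70 and 16.2 CPM and untreated DC2 cells at most 1.57 CPM. In TLI DC1b pools 1 to 4 the levels were 16.3, 6.03, 13.5 and 0 CPM. No TLI library of any subset came near the lower untreated DC1b library, and the mean in TLI DC1b cells was 0.486% of the untreated mean.

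Klk1, a tissue kallikrein that cleaves kininogens, lies on the same chromosome from 44225360 to 44229618. Its untreated DC1b levels were 1032 and 2255 CPM, a ratio of 2.18 between the pools and the widest of the set. Untreated DC3 cells held 18.9 and 32.9 CPM, and untreated DC1a cells 1.07 and 15.4 CPM. TLI DC1b pools 1 to 4 held 2.17, 10.6, 0 and 14.03 CPM, or 0.407% of the untreated mean. Klk1 and Cox6a2 did not move together within TLI DC1b cells. Pool 3 had 449 counts of Cox6a2 and 0 of Klk1, while pool 4 had 0 of Cox6a2 and 425 of Klk1. In the untreated DC1b pools the ratio of Klk1 to Cox6a2 counts was 0.715 and 1.00.

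Atp2a1 encodes the calcium pump of the sarcoplasmic reticulum of fast muscle and lies on chromosome 7 from 126445858 to 126463108. Untreated DC1b pools held 94.9 and 155 CPM. TLI DC1b libraries held 0, 0, 0 and 0.099 CPM, all at or under the floor, so the untreated mean was at least 865-fold higher. Mctp2, a membrane protein with C2 domains that bind calcium, lies on chromosome 7 from 72077830 to 72306608. It stood at 265 and 163 CPM in untreated DC1b cells and at 6.17, 0.678, 3.30 and 12.8 CPM in TLI DC1b pools 1 to 4. Its mean after TLI was 2.69% of the untreated mean, and 1.58% without pool 4, the pool that lacked Cd8a. Unlike Atp2a1, Mctp2 stayed above the floor in all 4 TLI DC1b libraries.

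Fbxl13, an F-box protein of ubiquitin ligases, lies on chromosome 5 from 21483847 to 21645634. It held 77.4 and 86.3 CPM in untreated DC1b cells. After TLI, DC1b pool 1 held 0.145 CPM and pools 2 to 4 held 0, all at or under the floor, so the untreated mean was at least 566-fold higher. Outside DC1b cells, untreated DC3 pool 1 held 4.85 CPM and no other library exceeded 0.867 CPM. Fbxl13 thus exceeded 0.867 CPM in 3 of 23 libraries.

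Grm8 encodes a metabotropic glutamate receptor and spans chromosome 6 from 27275119 to 28135178. It was at 90.8 and 64.3 CPM in untreated DC1b cells and at 0.145, 0.339, 0.12 and 0.165 CPM in TLI DC1b pools 1 to 4, or 0.248% of the untreated mean. No other library exceeded 0.357 CPM. Pacsin1, a membrane-bending F-BAR protein of endocytosis that is abundant in neurons, lies on chromosome 17 from 27655509 to 27711482. Its untreated DC1b levels were close, at 57.9 and 62.9 CPM. TLI DC1b pool 1 held 3.08 CPM while pools 2 to 4 held 0, 0 and 0.099 CPM, so its mean was 1.32% of the untreated mean and 0.0546% without pool 1, with the other 3 pools at or under the floor.

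Ly6d and Ptprs kept a larger share of their untreated level after TLI than these genes. Ly6d, a GPI-anchored protein that marks B-lineage-biased lymphoid progenitors, lies on chromosome 15 from 74762056 to 74763620. It held 128 and 226 CPM in untreated DC1b cells and 41.0, 16.6, 21.4 and 26.7 CPM in TLI DC1b pools 1 to 4, or 14.9% of the untreated mean. Ptprs, a receptor tyrosine phosphatase that restrains plasmacytoid cell activation, lies on chromosome 17 from 56412426 to 56476483. It held 84.4 and 88.4 CPM in untreated DC1b cells and 11.5, 11.6, 6.17 and 20.1 CPM in TLI DC1b pools 1 to 4, or 14.3% of the untreated mean. For both genes the TLI DC1b levels overlapped those of untreated DC1a libraries. All 4 TLI DC1b libraries lay below both untreated libraries for each gene.

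Lag3, an inhibitory receptor related to CD4 that binds MHC class II, lies on chromosome 6 from 124904361 to 124911705. Untreated DC1b pools held 0.479 and 0.783 CPM, from 12 and 22 counts. TLI DC1b pools 1 to 4 held 1.98, 0.641, 2.097 and 4.23 CPM, and the groups overlapped. The highest other level was 4.18 CPM in untreated DC1a pool 1, against 0.616 CPM in pool 2. Among the 10 genes Lag3 had no level in any library above 4.23 CPM.

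**Figure D2:**
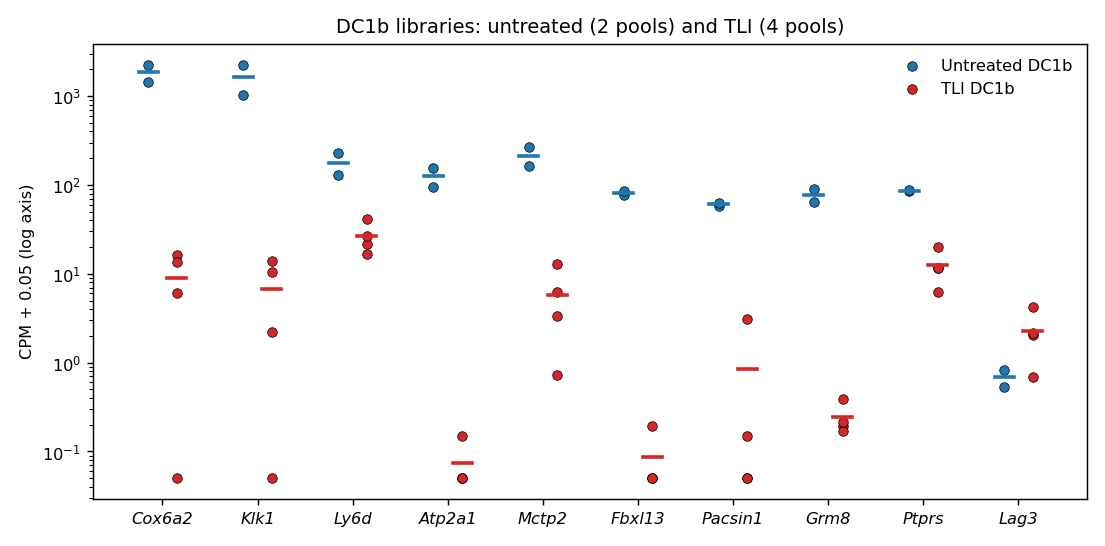
Level of each gene in single DC1b libraries on a log axis (CPM + 0.05), untreated in blue and TLI in red, with a bar at each mean. For 9 genes the 4 red points lie below both blue points, and for Lag3 they overlap.

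Per kilobase of exon, Cox6a2 stood at 2711 ± 834 CPM per kb in untreated DC1b cells (SD, n = 2) and Klk1 at 1526 ± 803. Ly6d followed at 238 ± 93.3, Atp2a1 at 36.0 ± 12.3 and Mctp2 at 17.3 ± 5.85 CPM per kb. Fbxl13, Pacsin1, Grm8 and Ptprs lay between 15.05 and 5.76 CPM per kb, and Lag3 at 0.299. Cox6a2 and Klk1 did not differ beyond their spread. The 10 genes together held 3273 and 5346 CPM of the untreated DC1b libraries, between 123 and 154 CPM of the untreated DC3 libraries, and between 46.5 and 82.5 CPM of the TLI DC1b libraries.

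All 10 genes passed the filter on low counts, which kept 19597 genes. In 529 of these, or 2.7%, both untreated DC1b libraries stood above the other 21, as in 9 of the 10 genes. Every untreated DC1b library lay above every TLI DC1b library for 9 of 10 genes and for 11.6% of all genes tested. Both counts follow from how the genes were chosen and nothing is read from them.

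In the order of the 8 groups by mean level, untreated DC1b cells came first for 9 genes without overlap with the next group. Untreated DC3 cells came second for 8 of the 10. Below the top of the order, neighbouring groups overlapped in 54 of 60 cases, so the lower ranks were mostly not separated by more than the spread of the libraries. For Cox6a2 and Klk1, untreated DC3 cells also stood above the next group without overlap.

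**Figure D3:**
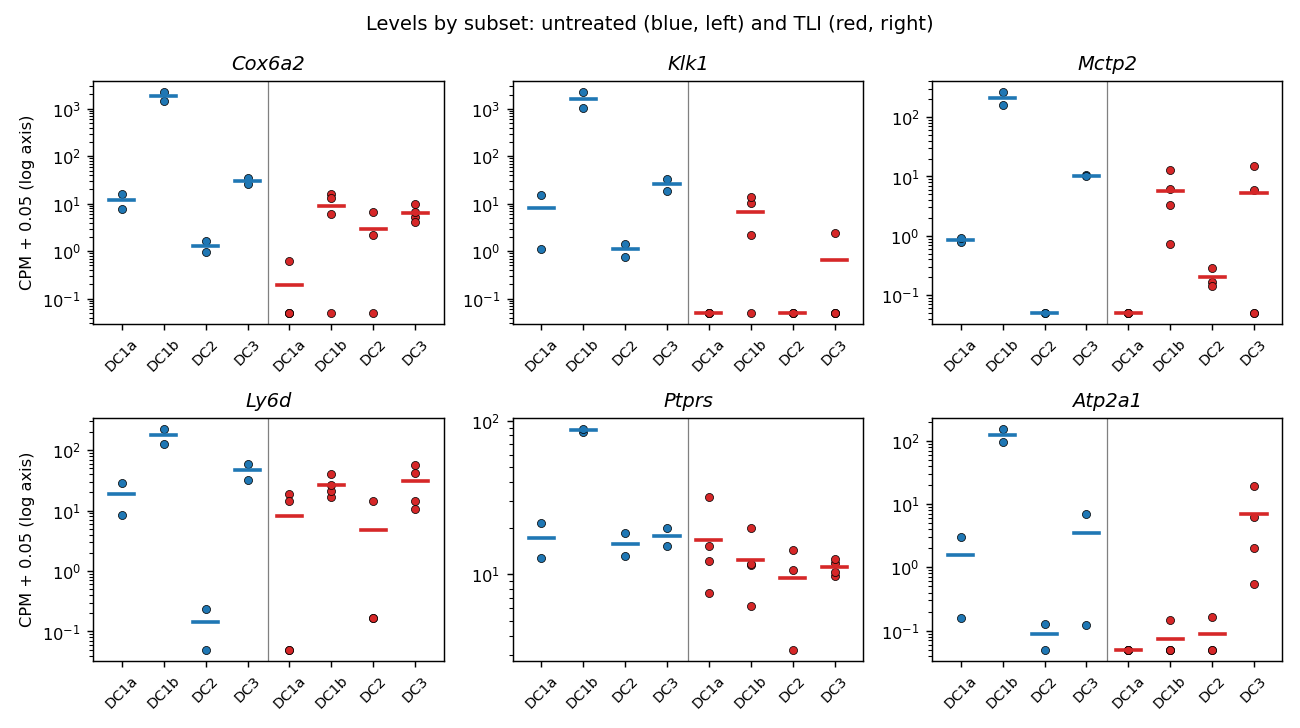
Levels of 6 of the genes in single libraries of the 8 groups, on a log axis (CPM + 0.05), untreated in blue and TLI in red, with a bar at each mean. Untreated DC1b cells are highest for each, and Cox6a2 and Klk1 of untreated DC3 cells lie above their TLI DC3 levels.

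TLI was also compared with no treatment in the subsets other than DC1b. The untreated DC1a, DC2 and DC3 libraries were among those in which the genes had been picked as lower, so any test there shares that choice. In DC3 cells, Cox6a2 was at 30.2 ± 6.40 CPM untreated (SD, n = 2) and 6.39 ± 2.40 CPM after TLI (n = 4). The TLI DC3 libraries held 5.20, 4.09, 6.61 and 9.64 CPM, all below both untreated libraries. Klk1 was 0, 0, 0 and 2.42 CPM in the TLI DC3 libraries, below the 18.9 and 32.9 CPM of the untreated ones. Ptprs was at 9.67 to 12.5 CPM after TLI and 15.3 and 19.9 CPM untreated. Ly6d and Mctp2 overlapped between the treatments in DC3 cells, with Ly6d at 56.1, 14.2, 42.6 and 10.6 CPM after TLI.

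In the edgeR quasi-likelihood test over all genes, 0 of the 10 genes passed an adjusted p of 0.05 in DC3 cells, against 0.0255% of all genes. DESeq2 also called 0, against 719 of 19597 genes. In edgeR 3 had an unadjusted p under 0.05, against 2044 of 19597 genes. They include Grm8, which had 6 and 10 counts in the untreated DC3 libraries and at most 3 after TLI. Grm8 passed the filter on low counts through its untreated DC1b libraries, so its p is not read. The smallest adjusted p in edgeR was 0.364, for Fbxl13. It rests on the 124 counts of untreated DC3 pool 1, since untreated pool 2 and every TLI DC3 library had 0. Klk1 had an adjusted p of 0.387 and Cox6a2 one of 0.69. Untreated libraries lay above all TLI libraries for 4 of the 10 genes and for 9.29% of all genes, and Grm8 in that count was at or under the floor in every TLI library.

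In DC1a cells, several genes with low untreated levels were at or near 0 after TLI. Klk1, Mctp2 and Atp2a1 were at 0 in all 4 TLI DC1a libraries, against 1.07 and 15.4, 0.740 and 0.863, and 0.111 and 2.92 CPM in the untreated ones. Cox6a2 was at 0.567, 0, 0 and 0 CPM after TLI against 7.70 and 16.2 CPM in the untreated ones. Siglech was also at 0 in all 4 TLI DC1a libraries, against 5.18 and 11.3 CPM. Ptprs overlapped, with means of 17.2 ± 6.28 CPM untreated and 16.6 ± 10.5 CPM after TLI.

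In DC1a cells 0 of the 10 genes passed in edgeR, against 0.0102% of all genes. In edgeR 5 had an unadjusted p under 0.05, against 1912 of 19597 genes. DESeq2 called 3, against 755 of 19597 genes. The smallest adjusted p in edgeR was 0.28, for Atp2a1. It rests on the 71 counts of untreated DC1a pool 2, since pool 1 had 3 counts, at the floor, and every TLI DC1a library had 0. Without the filter on low counts edgeR called 3, against 31 of 41095 genes. Untreated libraries lay above all TLI libraries for 5 of the 10 genes and for 7.58% of all genes. In that count Mctp2, Atp2a1, Klk1 and Lag3 were at or under the floor in every TLI library.

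DC2 cells held little of these genes under either treatment. Ptprs was the exception, at 13.1 and 18.4 CPM untreated and 14.4, 3.19 and 10.6 CPM after TLI. Ly6d was at most 0.187 CPM in 4 DC2 libraries and 14.1 CPM in TLI pool 4. Cox6a2 reached 6.63 CPM in that same library and 2.17 CPM in TLI pool 1. In DC2 cells 0 of the 10 genes passed in edgeR, against 0.0612% of all genes. In edgeR 2 had an unadjusted p under 0.05, against 1765 of 19597 genes. DESeq2 called 1, against 876 of 19597 genes. Ly6d had an adjusted p of 0.594 in edgeR. Untreated libraries lay above all TLI libraries for 3 of the 10 genes, Klk1, Grm8 and Pacsin1, each at or under the floor after TLI, and for 14.3% of all genes.

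After TLI, the subsets were compared with each other without the DC1b libraries that chose the genes. Atp2a1 was higher in DC3 than in DC1a cells, at 0.491, 6.22, 19.3 and 1.99 CPM in the 4 DC3 libraries and 0 in each DC1a library. The DC3 mean was at least 57.7-fold the floor of the DC1a libraries. In edgeR its adjusted p was 0.0469, and it was the 1 gene of the 10 that passed, against 0.75% of all genes. The call was lost without the batch term, with the replicate block and when any 1 of the 8 libraries was left out, so it lies at the threshold. DESeq2 called 4 of the 10 in this comparison, against 1093 of 19597 genes.

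Mctp2 and Cox6a2 were the next genes in DC3 against DC1a cells, both with an adjusted p above 0.05. Mctp2 was at 14.9, 5.83, 0 and 0 CPM in TLI DC3 cells, above the floor in the pools of batch 1 and at 0 in those of batch 2. Its edgeR adjusted p was 0.167. Cox6a2 was between 4.09 and 9.64 CPM in TLI DC3 cells and at most 0.567 CPM in TLI DC1a cells, without overlap, and its edgeR adjusted p was 0.171. The erythroid marker list was at up to 138351 CPM in the TLI pool 1 libraries, 18564 to 25711 CPM in pool 2 and at most 7925 CPM in batch 2, and its part in the Mctp2 levels was not tested.

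DC3 against DC2 cells after TLI gave 0 calls among the 10 in edgeR, against 1.37% of all genes. In edgeR 3 had an unadjusted p under 0.05, against 2585 of 19597 genes. DESeq2 called 2, against 1573 of 19597 genes. Atp2a1 came closest, with an adjusted p of 0.115 in edgeR. DC2 against DC1a cells gave 0 calls in edgeR, against 3.4% of all genes. In edgeR 3 had an unadjusted p under 0.05, against 3461 of 19597 genes. DESeq2 called 1, against 2450 of 19597 genes. Between the batches of the TLI libraries edgeR called 0 of the 10, against 17.4% of all genes. In edgeR 0 had an unadjusted p under 0.05, against 6234 of 19597 genes. DESeq2 called 1, against 5926 of 19597 genes.

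Within batch 1, which holds all untreated libraries, levels in DC1b cells could be compared without a difference in batch. The mean of TLI pools 1 and 2 was 0.607% of the untreated mean for Cox6a2, 0.387% for Klk1, 1.60% for Mctp2, 16.3% for Ly6d and 13.4% for Ptprs. In pools 3 and 4 of batch 2 these were 0.365%, 0.427%, 3.77%, 13.6% and 15.2%. Over the 9 genes other than Lag3 the median was 0.486% in all 4 pools and between 0.352% and 0.648% with any 1 of them left out. The gap to the untreated libraries was of this size whichever TLI pool was left out.

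Other plasmacytoid-associated genes, a list of 29 that holds none of the 10, were read in the same comparison. The list includes the 6 plasmacytoid markers summed above. Of the 29, 4 fell in edgeR at an adjusted p of 0.05, 0 rose, and 25 did not pass, while 0.214% of all genes fell. The fitted change was negative for 27 and positive for 2, with a median log2 fold change of -2.73 beside 0.09 over all genes. DESeq2 called 11, against 1267 of 19597 genes. In edgeR 15 had an unadjusted p under 0.05, against 2425 of 19597 genes. The list was put together with earlier results of these data known, so its count is a description.

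Runx2 and Tcf4, transcription factors of plasmacytoid cells, were among the 4. Runx2 went from 447 and 324 CPM to 17.7, 15.3, 83.9 and 57.2 CPM in TLI DC1b pools 1 to 4, a log2 fold change of -4.26 ± 0.55 (SE) with an edgeR adjusted p of 0.00294. Tcf4 went from 869 and 466 CPM to 71.7, 47.6, 33.7 and 25.95 CPM, a log2 fold change of -3.90 ± 0.52 with the same adjusted p in edgeR. P2ry14, a receptor for UDP-sugars, went from 501 and 447 CPM to between 44.2 and 80.5 CPM, with an edgeR adjusted p of 0.0248. Rnase6, an antimicrobial ribonuclease, went from 1239 and 2121 CPM to between 504 and 869 CPM, with an edgeR adjusted p of 0.00667. None of the 4 reached the floor after TLI, unlike Atp2a1 and Fbxl13.

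Siglech did not pass in edgeR, with an adjusted p of 0.0505. It was at 982 and 1654 CPM in untreated DC1b cells and at 33.4, 32.1, 10.3 and 0.297 CPM in TLI DC1b pools 1 to 4. Ccr9, a chemokine receptor of gut homing, was at 295 and 278 CPM untreated and between 1.32 and 18.6 CPM after TLI, with an edgeR adjusted p of 0.0917. Bst2, also called tetherin, was at 112 and 122 CPM untreated and between 0.231 and 31.8 CPM after TLI, with an edgeR adjusted p of 0.578. The count of 4 was 2 without a batch term, 1 within batch 1, 2 with the replicate block, and 1 and 2 without untreated DC1b pools 1 and 2. In DC3 cells 0 of the 29 passed in edgeR, against 5 of 19597 genes. In edgeR 1 had an unadjusted p under 0.05, against 2044 of 19597 genes. DESeq2 called 0, against 719 of 19597 genes.

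**Figure D4:**
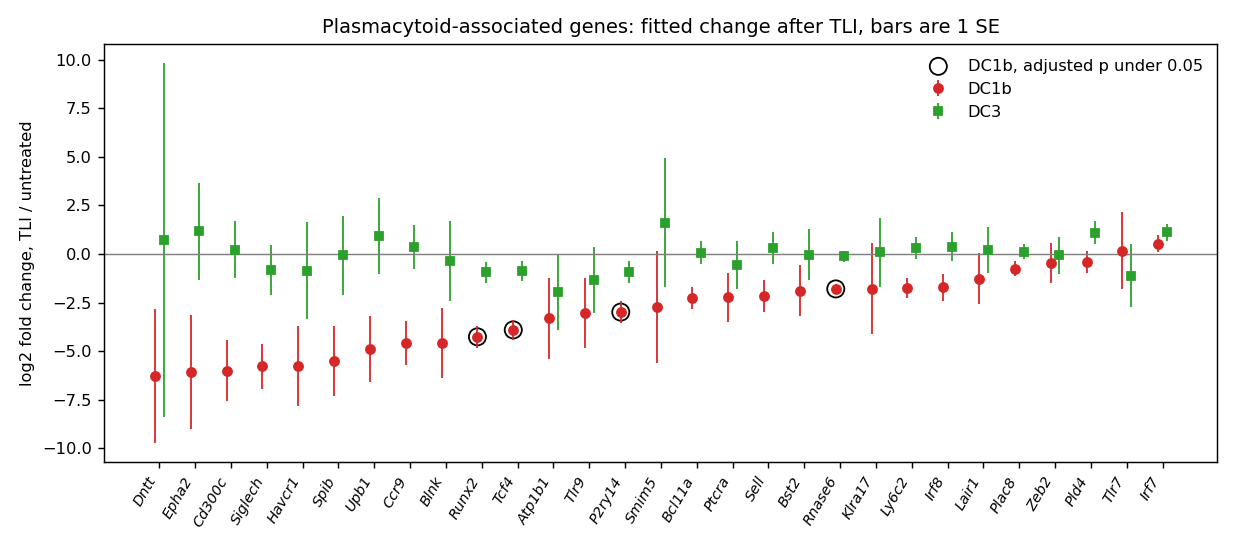
Fitted log2 fold change, TLI over untreated, of 29 plasmacytoid-associated genes in DC1b cells (red circles) and DC3 cells (green squares), with bars of 1 SE. Ringed points are the 4 genes with an adjusted p under 0.05 in DC1b cells. In DC1b cells 27 of 29 points are below 0.

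Relatives of the 10 genes showed which pattern was shared within a family. Of 45 listed relatives, 20 had a mean of at least 5 CPM over the 23 libraries, and 27 passed the filter. None passed an adjusted p of 0.05 in edgeR between TLI and untreated DC1b cells, against 0.413% of all genes. In edgeR 12 had an unadjusted p under 0.05, against 2425 of 19597 genes. DESeq2 called 6, of which 4 were lower and 2 higher, against 1267 of 19597 genes. The ubiquitous form Cox6a1 was at 642 ± 61.2 CPM in untreated (SD, n = 2) and 807 ± 142 CPM in TLI DC1b cells (n = 4), while the TLI level of Cox6a2 was 0.486% of the untreated one. Other subunits of the same complex were also read, with Cox8a at 876 ± 149 and 801 ± 252 CPM in untreated and TLI DC1b cells and Cox7a2 at 506 ± 17.9 and 1067 ± 611 CPM. The muscle form Cox7a1 was at 0 in both untreated DC1b libraries and at 6.56 ± 7.59 CPM after TLI.

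The widely expressed calcium pump Atp2a2 was at 30.7 ± 8.55 CPM in untreated and 35.6 ± 4.69 CPM in TLI DC1b cells. Atp2a3, the pump of blood cells, was at 27.6 ± 12.4 and 8.82 ± 8.25 CPM. Mctp1 was at 33.6 ± 4.08 CPM untreated and 110 ± 71.2 CPM after TLI, the opposite direction to Mctp2, with an edgeR adjusted p of 0.33. Pacsin2 was at 21.5 ± 19.9 and 33.6 ± 14.03 CPM, and Cd4, a relative of Lag3, at 133 ± 10.8 and 11.4 ± 7.37 CPM. Among the F-box relatives Fbxl5 was at 35.2 ± 21.2 and 92.3 ± 28.6 CPM and Fbxl20 at 22.4 ± 1.77 and 12.6 ± 14.8 CPM.

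The Ly6 family was uneven. Ly6c2 was at 1672 ± 592 CPM in untreated and 431 ± 301 CPM in TLI DC1b cells, Ly6c1 at 982 ± 235 and 226 ± 134 CPM, and Ly6a at 501 ± 436 and 139 ± 101 CPM. Ly6e was at 726 ± 418 and 917 ± 298 CPM. Ly6g, a neutrophil antigen, was at 0.262 ± 0.0322 CPM untreated and 30.5 ± 58.2 CPM after TLI. Ly6c2 is also in the list of 29.

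Klk1b27, Klk1b21 and Klk1b5 were the listed kallikreins of the Klk1b group with a mean of at least 5 CPM. In DC1b cells Klk1b27 was at 692 ± 284 CPM untreated and 6.32 ± 8.01 CPM after TLI, Klk1b21 at 73.1 ± 47.3 and 0.015 ± 0.030 CPM, and Klk1b5 at 83.4 ± 46.7 CPM untreated and 0 in all 4 TLI libraries. Their edgeR adjusted p was 0.183, 0.131 and 0.142, and none passed. Across subsets Klk1b27 differed from Klk1, with a mean of 27.4 CPM in untreated DC2 and 3.09 CPM in untreated DC3 cells, where Klk1 had 1.04 and 25.9 CPM. Klk1b11, named after its values were seen, was at 0.52 ± 0.171 CPM in untreated and 1.55 ± 3.09 CPM in TLI DC1b cells. Its spread after TLI was wider than the difference between the means. The longest protein-coding transcript of Klk1 matched that of Klk1b5 at 94.4% of aligned bases, Klk1b21 at 86.7% and Klk1b27 at 85.1%. Stretches of 76 bases, the read length, were shared with Klk1 in 7.29% of those of Klk1b5, 0.879% of Klk1b21 and 0.86% of Klk1b27. How reads were divided between these genes was not tested, and the level of each is uncertain to that extent. Cox6a2 and Cox6a1 matched at 64.2% of aligned bases and shared 0 such stretches.

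Other genes overlap the 10 on the opposite strand, and the library kit does not mark strand, so their reads cannot be told apart by strand. Atp2a1 shares 763 exonic bases with Rabep2, which was between 37.8 and 48.8 CPM in untreated DC1b cells and between 0.0899 and 18.5 CPM in TLI DC1b cells. Cox6a2 shares 70 exonic bases with Itgad, at 17.5 to 25.4 CPM in untreated and 2.54 to 67.6 CPM in TLI DC1b cells, far below Cox6a2 in the untreated cells. Fbxl13 shares 161 exonic bases with Lrrc17, which had 62 counts over all 23 libraries. Grm8 holds the 96 bases of Mir592 on its own strand.

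The genes with the pattern most like the mean of the 10 were named by Pearson's r of log2 CPM over the 23 libraries, among 10157 genes with a mean of at least 5 CPM. The libraries share subsets and treatments, so r is a description. Olfr164, an olfactory receptor gene, had an r of 0.92, with 94.3 and 44.0 CPM in untreated DC1b cells and at most 0.289 CPM in TLI DC1b cells. Gm21762 and D13Ertd608e on chromosome 13 had an r of 0.90 and 0.88. They shared 85.2% of the 76-base stretches of D13Ertd608e and are hard to tell apart. Klk1b5 had an r of 0.89 and Klk1b21 one of 0.86. Spearman's rho was 0.89 for Olfr164, 0.78 for Gm21762 and 0.79 for D13Ertd608e, and lower for Klk1b5 at 0.58 and Klk1b21 at 0.44. Pearson's r of the 10 genes themselves ranged from 0.45 for Lag3 to 0.89 for Grm8. Each of them is part of the mean it was set against, so these values are not comparable with those of the other genes.

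Markers of other cells also differed between untreated and TLI DC1b libraries. The 6 neutrophil markers summed to 16.5 and 0.748 CPM in the untreated and between 1340 and 22715 CPM in the TLI DC1b libraries. The 6 monocyte and macrophage markers summed to 1827 and 3024 CPM untreated and between 8368 and 24555 CPM after TLI, and Fcgr1 did not exceed the floor in either untreated library. The 6 erythroid markers summed to 63.5 and 96.9 CPM untreated and between 2200 and 69448 CPM after TLI, with Alas2 at or under the floor in the untreated libraries. The 6 B-cell markers, carried mostly by Ighm, summed to 1018 and 1321 CPM untreated and between 1539 and 5693 CPM after TLI. The 7 DC1 markers summed to 1601 and 1683 CPM untreated and between 658 and 1311 CPM after TLI. The part of these cells in the lower levels of the 9 genes was not tested.

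Sums of the DC2 and T-cell lists overlapped between the treatments in DC1b cells. The 6 DC2 markers summed to 488 and 1091 CPM untreated and between 148 and 561 CPM after TLI. The 6 T-cell markers summed to between 6.87 and 16.0 CPM untreated, with Cd3e, Cd3g and Trac at or under the floor, and between 14.7 and 263 CPM after TLI. The 6 NK-cell markers summed to 323 and 349 CPM untreated and between 111 and 278 CPM after TLI, without overlap. In DC3 cells, where the TLI levels of Cox6a2 and Klk1 lay below the untreated ones, erythroid markers summed to 127 and 51.2 CPM untreated and between 353 and 138351 CPM after TLI, without overlap. Neutrophil markers were at 0 in both untreated DC3 libraries and between 3.97 and 87.9 CPM after TLI, also without overlap, and the plasmacytoid list was 388 and 413 CPM untreated and between 262 and 1180 CPM after TLI. Their part in the Cox6a2 and Klk1 levels of DC3 cells was not tested.

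**Figure D5:**
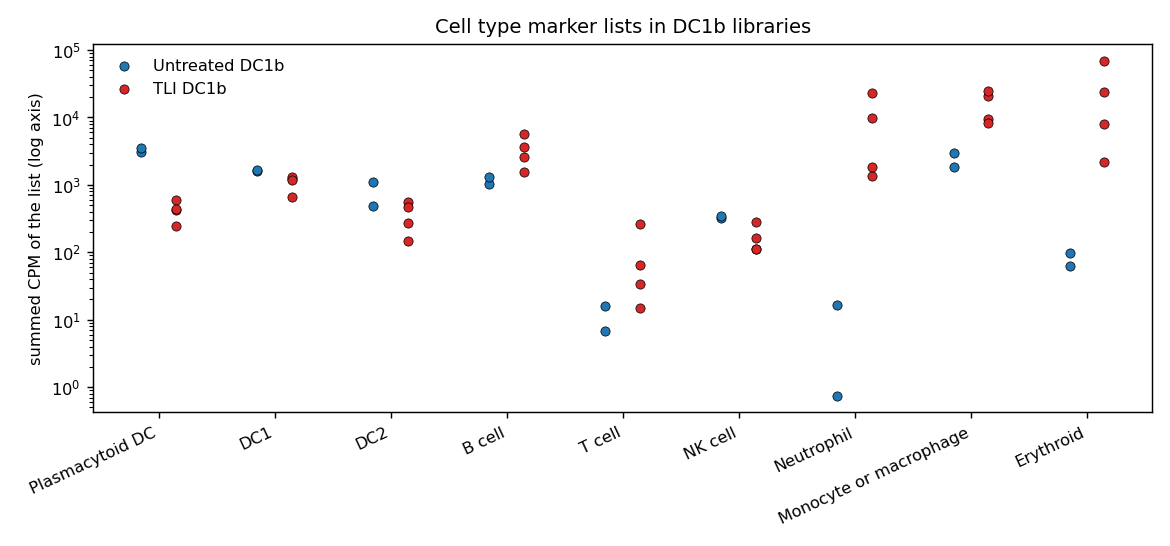
Summed CPM of 9 lists of cell type markers in single DC1b libraries, on a log axis, untreated in blue and TLI in red. The plasmacytoid list is lower in the 4 TLI libraries than in both untreated ones, and the neutrophil, monocyte and erythroid lists are higher.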

How the data were processed

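RNA of sorted cells was copied to cDNA with a SMARTseq v4 kit, which does not mark strand, and sequenced in paired reads of 76 bases. The authors trimmed reads with Trimmomatic, aligned them to GRCm38 with HISAT2 and deposited estimated counts per gene from StringTie, whole numbers that are not scaled for depth or length. The submitters' processing notes also name DESeq2.

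Symbols and positions came from GENCODE M21, which held 47224 of 47729 identifiers. All 23 libraries entered 1 fit in edgeR 4.0.16 (R 4.3.3) with TMM scaling, its filter on low counts, 8 groups of subset and treatment and a batch term. The batch term is estimated from the TLI pools, since all untreated pools are in batch 1. The quasi-likelihood test was used with Benjamini-Hochberg adjustment over 19597 genes and a threshold of 0.05. Figures and ranks used Python 3.11.15. The test was tested on simulated data with the same spread for every gene and no batch effect. There it recovered most of the seeded changes at a lower spread than that of these libraries and none at a spread close to theirs. A gene that did not pass is therefore not shown to be unchanged. A fold against a group at the floor of 3 counts in each library was computed against the highest floor of those libraries.

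The members and lists were chosen with earlier results of these data known. Named are all 10 genes, plasmacytoid genes past the threshold in TLI versus untreated DC1b cells (up to 4) with Siglech, Bst2, Ccr9 and Tcf4, relatives with a mean of at least 5 CPM, and the 5 genes most like the set. 1 relative is not reported here. Alternatives were DESeq2 1.42.0, its size factors (RLE), no filter, no batch term, batch 1 alone, a replicate block, other sets of libraries, each library left out, and, for the likeness, Spearman's correlation and a prior count of 0.5 in place of 2. Percentages without single TLI DC1b pools and by batch were added after the data were seen.

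Libraries of the same pool number within a treatment come from the same mice by the labels. Residuals of such libraries correlated between -0.162 and 0.0673 over genes in TLI mice and between -0.00585 and 0.0159 in untreated mice. The labels do not say how many mice a pool held, and p-values measure the spread between these pools.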

Additional observations from a re-analysis of the deposited data

Results flagged for a closer look

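In 20 sets of 4 TLI libraries with a level above the floor, 4 had a highest library that stood far from the others by Dixon's criterion. Chance meets this criterion in about 1 in 20 sets of continuous values, a rate that does not apply here, because in all 4 the other 3 libraries were at or under the floor and a single library above it then meets the criterion by construction. Cox6a2 in TLI DC1a cells was 0.567 CPM in pool 1 and 0 in the other 3 pools. Klk1 in TLI DC3 cells was 2.42 CPM in pool 4 and 0 in the other 3. Pacsin1 in TLI DC1b cells was 3.08 CPM in pool 1 and at most 0.099 CPM in the others. Pacsin1 in TLI DC3 cells was 2.27 CPM in pool 2 and 0 in the others.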

How the results depend on the processing

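The 10 genes and the lists are limited by 2 untreated pools per subset, all in batch 1, and by a biological coefficient of variation of 1.08. Of the recomputed values for whole comparisons, 123 stayed within the limits set and 36 moved. For the 29 plasmacytoid genes in DC1b cells the 4 calls became 7 without the filter, 11 with DESeq2, 2 without the batch term, 1 within batch 1, and 2 with the replicate block within batch 1. Calls among the 10 genes became 3 without the filter and 3 with DESeq2 in TLI versus untreated DC1a cells and 1 with DESeq2 in DC2 cells. In DC3 versus DC1a cells after TLI the 1 call became 3 without the filter, 4 with DESeq2, 0 without the batch term and 0 with the replicate block. In DC3 versus DC2 cells it was 0 and became 1 without the filter and 2 with DESeq2. Between DC2 and DC1a cells 0 calls became 1 under each, and between batches 1 with DESeq2. Without the filter, calls over all 41095 genes were 31 in TLI versus untreated DC1a cells and 233 in DC3 versus DC1a cells. They were 408 in DC3 versus DC2 cells and 745 in DC2 versus DC1a cells. The DESeq2 calls over all genes are given beside each comparison above. The causes were not tested.

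Leaving out single libraries gave these ranges. The count of plasmacytoid genes lay between 1 and 6 in DC1b cells, and that of the 10 genes in DC3 versus DC1a cells after TLI was 0 throughout. The median log2 fold change of the 10 genes, -6.67 between TLI and untreated DC1b cells, lay between -8.23 and -6.31, the former without TLI DC1b pool 1. It was 6.82 between untreated DC1b and DC1a cells (6.33 to 8.03), 10.43 against DC2 cells (9.81 to 10.62) and 4.96 against DC3 cells (4.27 to 5.91). The pairing by pool number comes from the labels, and the replicate block changed no call among the 10 genes other than that of Atp2a1. DESeq2's size factors moved the median log2 difference of all genes between batches from -0.23 to -0.37. Calls over all genes differed between tools: in DC1b cells edgeR called 81 and DESeq2 1267, with 167 without the filter, 19 without the batch term, 4 within batch 1 and 14 with the replicate block. Values of Lag3, Grm8 and Fbxl13 outside untreated DC1b cells rest on few counts.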
